A study of Homo sapiens with 12 samples.

Results

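SAFB1 KD and SLTM KD were compared directly, to see which transcripts depend on which member of the SAFB family. The comparison took in the 6 libraries of these groups (3 each) of the 12 in the series, chosen by their sample titles. The cells were Flp-In T-REx HEK293, a human embryonic kidney line. SAFB1 KD cells received 1 siRNA (small interfering RNA) against SAFB and SLTM KD cells 1 siRNA against SLTM, with negative control siRNA added so that the total equalled that used against 3 targets at once. Control cells received control siRNA, and triple KD cells siRNAs against SAFB, SAFB2 and SLTM (3 libraries each). These groups are cited only to place the values. Each target was lowered with a single siRNA, so loss of the target and other actions of that siRNA cannot be told apart within a group. In bulk RNA, fewer cells of a kind and less RNA per cell cannot be told apart either.

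SAFB (the gene of the SAFB1 protein), SAFB2 and SLTM encode large nuclear proteins with an RNA recognition motif and a DNA-binding SAP domain. SAFB and SAFB2 lie head to head on chromosome 19 and are the more similar pair, while SLTM (SAFB-like transcription modulator) is the more distant paralogue. The family is known for binding purine-rich RNA and for roles in splicing and transcription.

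The siRNA sequences are shown because each of them defines a group. They are given as the RNA sense strand from the list of oligos of the study, in lower case, with capitals marking the bases that face positions 2 to 8 (the seed) of the guide strand. The 3′ overhang is included.

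SAFB1 siRNA: ggaccaagaugAUCAGAAatt

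SLTM siRNA: gcauuagaauaAUUCGUGatt

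The SAFB1 siRNA matched the SAFB transcript over its 19 paired bases at chr19:5654145-5654163 (GRCh38, plus strand) and the SLTM siRNA matched SLTM at chr15:58890402-58890420 (minus strand), both upstream of the stop codon. The closest place for the SAFB1 siRNA in the SAFB2 transcript had 4 mismatches, and that in SLTM 5. Neither SAFB nor SAFB2 came closer than 8 mismatches to the SLTM siRNA.

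Levels are given as CPM, counts relative to a common, scaled library size. The SAFB1 KD libraries held 56856228 to 67842955 gene counts and the SLTM KD libraries 58070400 to 62227480. Mitochondrial transcripts took 3.40 to 3.68% of counts in SAFB1 KD and 3.89 to 4.25% in SLTM KD. As a check of the cell line, the 7 HEK293 markers summed to 1625 to 1668 CPM in SAFB1 KD and 1648 to 1652 CPM in SLTM KD, with NEFL, LIN28B and VIM the most abundant. Leukocyte markers summed to at most 1.36 CPM and fibroblast markers to at most 17.9 CPM. Squamous markers summed to at most 5.52 CPM and neuron markers to at most 35.5 CPM. Colon epithelium markers summed to 155 to 162 CPM, almost all of it EPCAM and CDX2. CDH17 and CEACAM5 were at or near 0.

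The targets were compared first. SAFB (ENSG00000160633.12, chromosome 19, 5623035 to 5668478, plus strand) stood at 45.6, 44.3 and 46.1 CPM in the SAFB1 KD libraries and at 232, 233 and 241 CPM in the SLTM KD libraries. SLTM (ENSG00000137776.16, chromosome 15, 58879050 to 58933679, minus strand) stood at 135, 139 and 141 CPM in SAFB1 KD and at 19.6, 19.3 and 22.7 CPM in SLTM KD. Within these 6 libraries each target was low where the label named it and high where it did not. The log2 fold change of SAFB1 KD over SLTM KD was -2.38 ± 0.0263 (SE) for SAFB and 2.76 ± 0.0379 for SLTM (edgeR quasi-likelihood test, adjusted p = 1.38e-60 and 2.50e-55). SAFB was left at 19.5% of its control level in SAFB1 KD and SLTM at 17.7% in SLTM KD.

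SAFB2, targeted by neither siRNA, differed between the groups. It stood at 207, 206 and 213 CPM in SAFB1 KD against 138, 138 and 142 CPM in SLTM KD, and at 126 ± 2.49 CPM in control cells (SD, n = 3). The libraries of the groups did not overlap, as was so for 28.3% of all genes tested, and the log2 fold change was 0.58 ± 0.0238 (edgeR, adjusted p = 4.32e-29). SAFB2 was thus at 166% of control in SAFB1 KD and 111% in SLTM KD. SLTM was at 120% of control in SAFB1 KD, while SAFB was at 101% in SLTM KD (edgeR against control, not called, adjusted p = 0.701). The starts of SAFB and SAFB2 overlap on opposite strands, where reads were told apart by strand alone.

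Per kilobase of transcript, SAFB was the most abundant member in control cells at 75.8 CPM per kb, followed by SAFB2 at 39.9 and SLTM at 27.8. Summed over the family, the level per kilobase was 113, 113 and 116 in SAFB1 KD and 124, 124 and 129 in SLTM KD, compared with 143 ± 0.841 in control cells (SD, n = 3). The libraries of the groups did not overlap, and the difference was -11.9 CPM per kb (exact permutation test, two-sided, p = 0.1, the lowest value possible with 3 against 3).

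**Figure D1:**
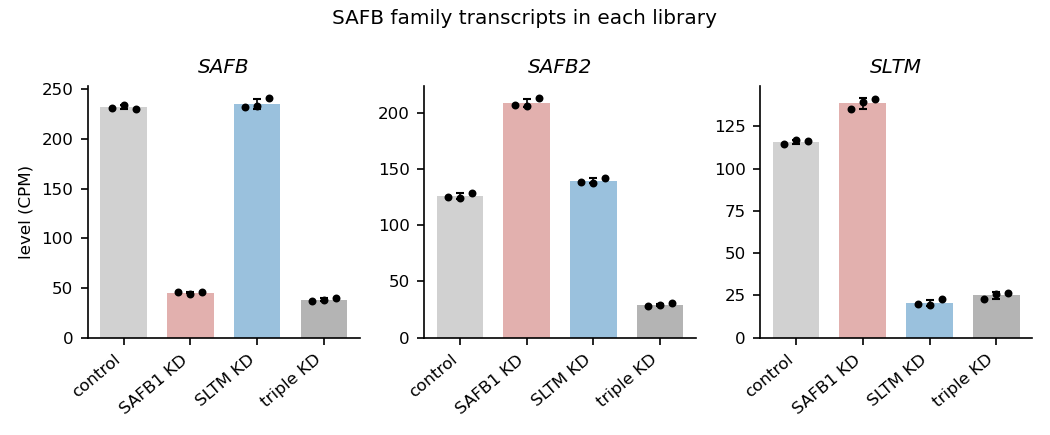
Levels of SAFB, SAFB2 and SLTM in CPM (y axes from 0, each gene on its own scale) in the 4 groups (x axis). Points are libraries, and bars with whiskers the mean and SD of 3. SAFB2 has a mean of 209 CPM in SAFB1 KD against 140 CPM in SLTM KD.

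Across the transcriptome the knockdowns differed in many genes by little. Of 26688 genes tested, 2473 (9.27%) were called higher in SAFB1 KD than in SLTM KD and 1809 (6.78%) lower, 16.0% in all, at an adjusted p under 0.05. The median absolute log2 fold change among those called was 0.15, and 415 of the 4282 differed by at least 1.5-fold, 113 higher and 302 lower. Of these, 36 higher and 105 lower averaged 1 CPM or more. The rest were rarer genes, where only large differences could be called. The split depended on scaling, with 1780 higher and 2340 lower under upper-quartile scaling. Compared with control cells, 9.66% of genes were called in SAFB1 KD and 9.26% in SLTM KD. Both of these comparisons share the control libraries.

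Tested against a 2-fold difference, 8 genes were called (0.0300%). SAFB and TNFRSF21 were lower in SAFB1 KD, and SLTM, ALMS1-IT1, DNAH10OS and HSP90B2P were higher. The other two were unnamed processed pseudogenes, ENSG00000223599.1 (2.21 on the log2 scale, chromosome 1) and ENSG00000269069.1 (1.53, chromosome 19), picked after their values were seen.

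**Figure D2:**
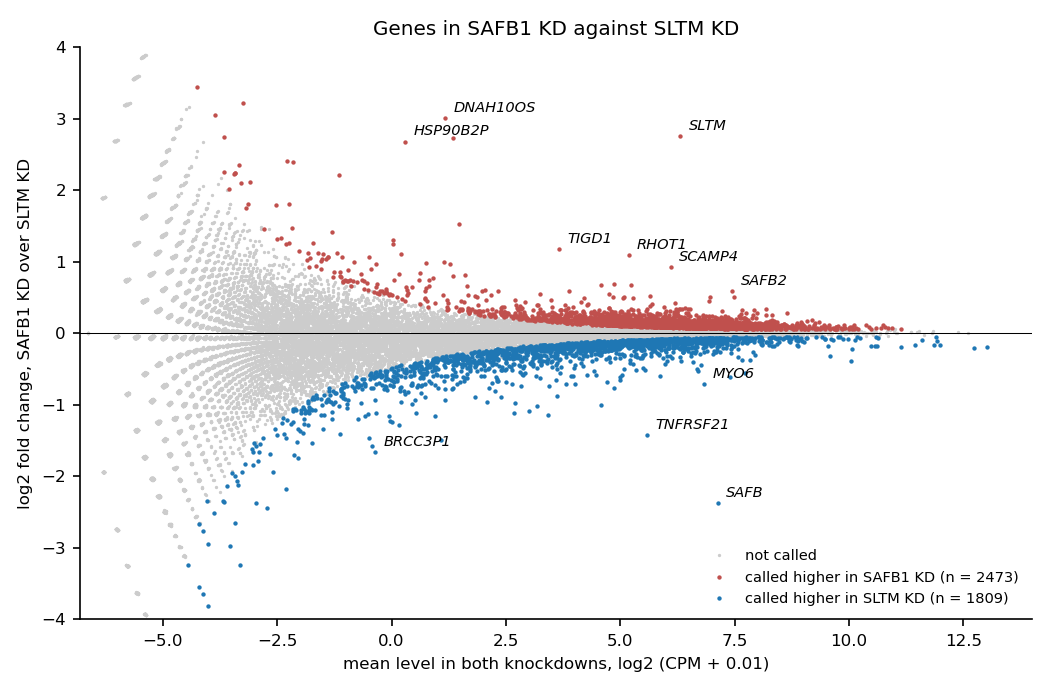
Log2 fold change of SAFB1 KD over SLTM KD (y axis, from -4 to 4) against the mean level in both knockdowns (x axis, log2 of CPM plus 0.01) for each gene tested. Red points are the 2473 genes called higher in SAFB1 KD, blue the 1809 called higher in SLTM KD and grey the rest. Most called genes lie near 0, and SAFB, SLTM and TNFRSF21 stand apart among abundant ones.

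Among abundant transcripts, those of at least 50 CPM in either group, the lowest in SAFB1 KD after SAFB was TNFRSF21, which encodes death receptor 6. TNFRSF21 (ENSG00000146072.6, chromosome 6, 47231532 to 47309905, minus strand) stood at 25.8, 26.7 and 25.7 CPM in SAFB1 KD and at 71.0, 71.1 and 68.5 CPM in SLTM KD, with control cells at 71.6 ± 2.2 CPM. SLTM KD was thus near control and SAFB1 KD far below. The log2 fold change between the knockdowns was -1.43 ± 0.0333 (edgeR, adjusted p = 3.33e-42). Triple KD stood at 24.9 ± 0.664 CPM.

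MYO6, an unconventional myosin that moves towards the minus end of actin filaments, stood at 87.2, 85.8 and 85.5 CPM in SAFB1 KD and at 142, 143 and 139 CPM in SLTM KD (log2 fold change -0.71 ± 0.0249, edgeR adjusted p = 1.09e-32). EIF4EBP2, a repressor of cap-dependent translation, stood at 135, 132 and 134 CPM against 209, 209 and 199 CPM (-0.62 ± 0.0230). For both genes SLTM KD was not called against control (log2 fold changes -0.06 and 0.03), whereas SAFB1 KD was called lower (-0.77 and -0.59). ERLIN2 (-0.53), ZNF451 (-0.51) and GOLIM4 (-0.51), which encode an endoplasmic reticulum membrane protein, a SUMO ligase and a Golgi membrane protein, had the same layout, with SAFB1 KD called lower than control and SLTM KD not called. MIGA1, involved in mitochondrial fusion, was called lower in both knockdowns and lower still in SAFB1 KD (37.4 ± 1.18 CPM against 52.6 ± 2.04 CPM, control 58.5 ± 1.04 CPM).

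ATP9A lay on opposite sides of control in the knockdowns. This gene of a phospholipid flippase stood at 45.8, 46.7 and 46.0 CPM in SAFB1 KD, at 70.7, 72.4 and 67.4 CPM in SLTM KD and at 61.6 ± 2.0 CPM in control cells (log2 fold change between the knockdowns -0.60 ± 0.0307, edgeR adjusted p = 2.19e-24). It was called lower than control in SAFB1 KD and higher in SLTM KD.

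Most of the abundant genes higher in SAFB1 KD were ones called lower than control in SLTM KD, and RHOT1, just under that abundance, was the clearest. RHOT1 encodes Miro1, a mitochondrial GTPase that couples mitochondria to motor proteins. RHOT1 (chromosome 17, 32142454 to 32253374, plus strand) stood at 47.3, 51.0 and 49.8 CPM in SAFB1 KD and at 23.1, 23.3 and 23.1 CPM in SLTM KD, with control cells at 47.4 ± 0.582 CPM (log2 fold change 1.09 ± 0.0362, edgeR adjusted p = 7.47e-34). SAFB1 KD was not called against control. Triple KD was lower again, at 14.4 ± 0.340 CPM.

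SRSF1, a splicing factor, stood at 91.9, 85.4 and 72.8 CPM in SAFB1 KD and at 67.0, 64.3 and 55.4 CPM in SLTM KD (0.42 ± 0.0486). SLC7A5, the large neutral amino acid transporter, stood at 145, 143 and 137 CPM against 103, 101 and 107 CPM (0.45 ± 0.0263), BMI1, a Polycomb protein, at 59.1 ± 3.75 against 44.8 ± 4.16 CPM (0.40 ± 0.0428), and VWA8, a mitochondrial ATPase, at 56.6 ± 1.67 against 43.5 ± 0.373 CPM (0.38 ± 0.0316). All 4 were called lower than control in SLTM KD, and only SLC7A5 of them was also called in SAFB1 KD (0.10, higher). TMED7, a cargo receptor of the early secretory pathway, stood at 65.3, 61.3 and 50.9 CPM against 45.4, 45.4 and 33.7 CPM (0.51 ± 0.0607). For SRSF1, TMED7 and BMI1, replicate 3 was the lowest library in both knockdowns.

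ZNF638 and CHML were called above control in SAFB1 KD and slightly below it in SLTM KD. ZNF638, a nuclear RNA-binding zinc finger protein that the study names as a SAFB partner, stood at 204, 213 and 217 CPM in SAFB1 KD, at 148, 149 and 149 CPM in SLTM KD and at 157 ± 5.57 CPM in control cells (0.51 ± 0.0237, edgeR adjusted p = 3.61e-26). CHML, a Rab escort protein gene that lies in an intron of OPN3 on its strand, stood at 146 ± 2.93 CPM, 103 ± 5.69 CPM and 112 ± 2.74 CPM in the same order (0.50 ± 0.0291).

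Of the abundant genes higher in SAFB1 KD, SCAMP4, which encodes a secretory carrier membrane protein, differed by the most after SLTM. SCAMP4 (chromosome 19, 1905214 to 1926013, plus strand) stood at 91.3, 91.2 and 88.9 CPM in SAFB1 KD, at 48.3, 46.8 and 47.8 CPM in SLTM KD and at 60.3 ± 1.03 CPM in control cells. It was called higher than control in SAFB1 KD (0.59) and lower in SLTM KD (-0.34), with 0.93 ± 0.0283 between them (edgeR, adjusted p = 1.16e-35). ADAT3, a subunit of a tRNA adenosine deaminase whose gene (1905399 to 1913447) overlaps SCAMP4 on its strand, went the other way. It stood at 5.70, 5.14 and 4.63 CPM in SAFB1 KD, at 10.9, 10.8 and 11.3 CPM in SLTM KD and at 8.32 ± 0.768 CPM in control cells (-1.09 ± 0.0721, edgeR adjusted p = 5.15e-19). Reads in shared exons are not assigned to either gene by this counting, so both levels are uncertain and rest on the parts that do not overlap.

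**Figure D3:**
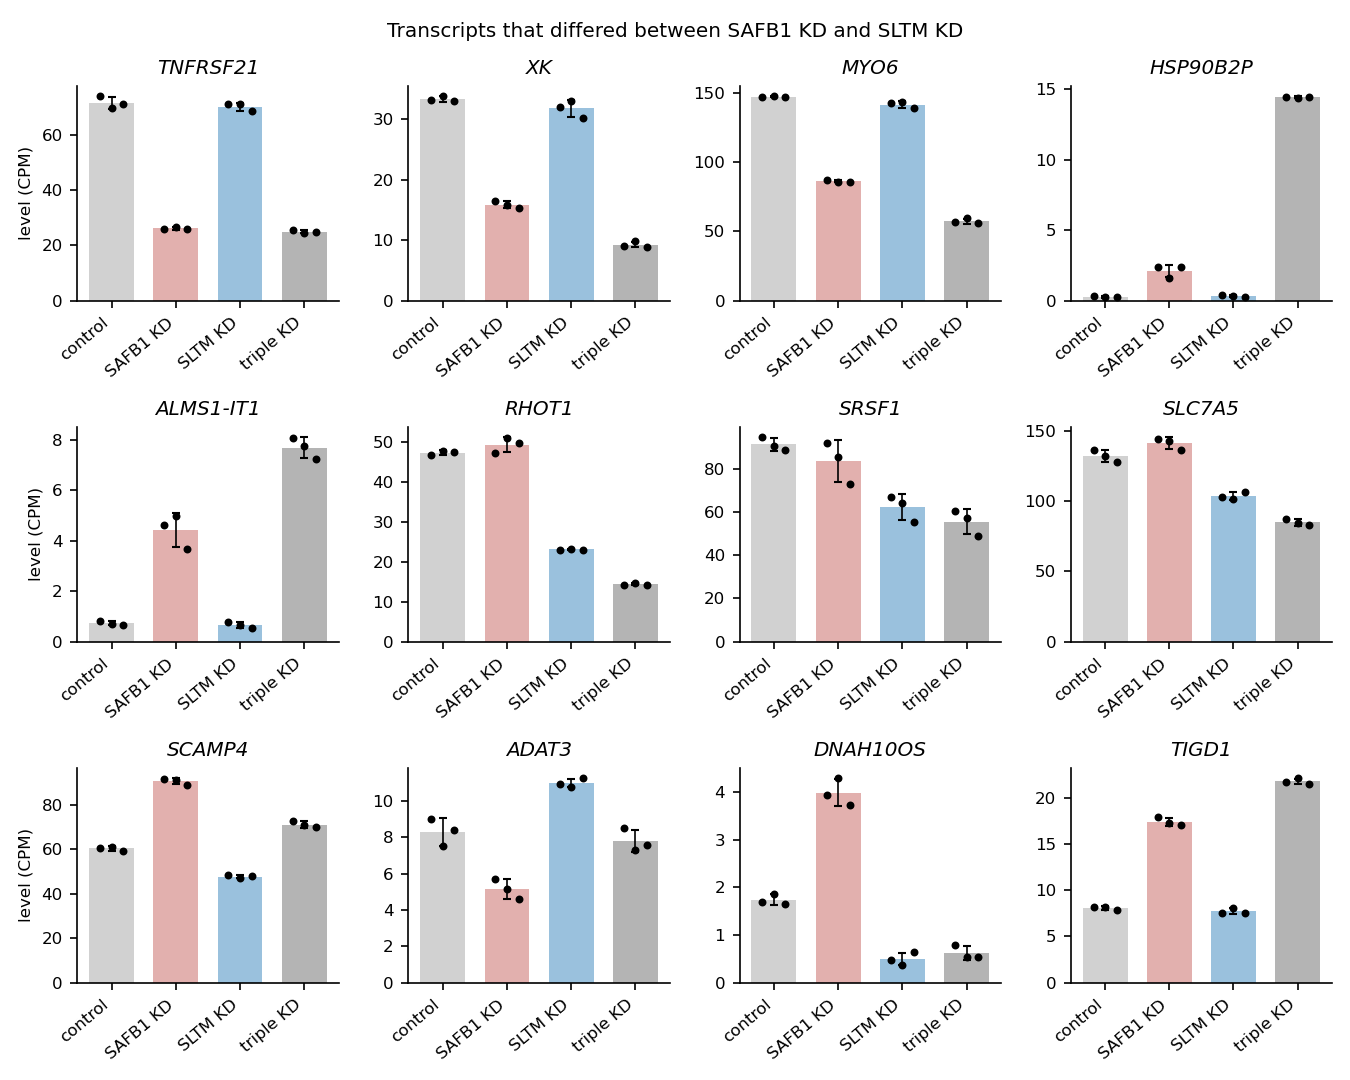
Levels in CPM (y axes from 0, each gene on its own scale) of 12 transcripts in the 4 groups (x axis), with points for libraries and bars with whiskers for the mean and SD of 3. TNFRSF21, XK and MYO6 are low in SAFB1 KD, RHOT1 is low in SLTM KD, at 23.2 CPM, and SCAMP4 and ADAT3 lie on opposite sides of control in the knockdowns.

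Below 50 CPM, the genes highest in SAFB1 KD were largely nested transcripts and pseudogenes. HSP90B2P, a processed pseudogene (an intronless copy of a spliced mRNA) of the chaperone gene HSP90B1, lies in an intron of LRRC28 on its strand. It stood at 2.36, 1.62 and 2.38 CPM in SAFB1 KD and at 0.369, 0.352 and 0.258 CPM in SLTM KD (log2 fold change 2.68 ± 0.182, edgeR adjusted p = 1.68e-18). SLTM KD lay near control cells (0.262 ± 0.0502 CPM), and triple KD stood at 14.4 ± 0.0743 CPM.

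ALMS1-IT1, a transcript inside an intron of ALMS1 (chromosome 2, 73456764 to 73459482), stood at 4.61, 4.97 and 3.65 CPM in SAFB1 KD against 0.770, 0.671 and 0.550 CPM in SLTM KD (2.73 ± 0.136, edgeR adjusted p = 8.01e-25). It too was near its control level in SLTM KD (0.725 ± 0.0834 CPM). The pseudogenes NPM1P9 (1.30, in an intron of FANCB), MAN1A2P1 (1.24) and TMPOP2 (0.84) were likewise called above control in SAFB1 KD and not called in SLTM KD. SEC14L1P1 (1.11, in an intron of ALKBH3) was called above control in both, at 1.56 ± 0.147 CPM in SAFB1 KD and 0.724 ± 0.167 CPM in SLTM KD. Pseudogenes share sequence with their parent genes, so their levels are uncertain where reads could fit both.

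DNAH10OS (chromosome 12, 123925461 to 123934984, minus strand), a long noncoding RNA in an intron of CCDC92, differed by the most of the genes named for the size of their difference. It stood at 3.94, 4.29 and 3.72 CPM in SAFB1 KD, at 0.481, 0.369 and 0.636 CPM in SLTM KD and at 1.74 ± 0.113 CPM in control cells (3.01 ± 0.153, edgeR adjusted p = 2.19e-24). Triple KD stood with SLTM KD, at 0.620 ± 0.146 CPM. Its host CCDC92 was called lower in SAFB1 KD than in SLTM KD (-0.32 ± 0.0508).

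Coding genes of this range included TIGD1, derived from a Tigger transposase, at 17.9, 17.3 and 17.0 CPM in SAFB1 KD against 7.57, 8.11 and 7.5 CPM in SLTM KD (1.17 ± 0.0534, edgeR adjusted p = 1.00e-26). YY2, a retrogene of the transcription factor YY1 in an intron of MBTPS2, stood at 3.20 ± 0.384 against 1.85 ± 0.159 CPM (0.79), and SRRM5 at 2.23 ± 0.244 against 1.12 ± 0.0477 CPM (0.98). For these 3, SLTM KD was not called against control. MTHFS, a folate enzyme gene, was called lower than control in SLTM KD and not called in SAFB1 KD (0.82 between the knockdowns). MIR1244-2, a microRNA gene at which poly(A) libraries and copies elsewhere make the count doubtful, was called lower than control in both (0.81).

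Of the genes lowest in SAFB1 KD below 50 CPM, XK, a membrane transport gene, was the most abundant. XK stood at 16.4, 15.8 and 15.4 CPM in SAFB1 KD against 32.0, 33.1 and 30.3 CPM in SLTM KD, with control cells at 33.3 ± 0.447 CPM (-1.0 ± 0.0431, edgeR adjusted p = 5.76e-28). UBOX5, a ubiquitin ligase gene (4.05 ± 0.205 against 8.78 ± 0.688 CPM, -1.12), ZNF814, a zinc finger gene (-1.16), SHC3, an adaptor protein gene (-1.12), CATSPERE, a subunit of the sperm calcium channel (-0.97), and the noncoding MIR600HG (-0.98), ZNF571-AS1 (-1.58) and ARRDC3-AS1 (-1.12) followed it. Each of these was called lower than control in SAFB1 KD and not called in SLTM KD.

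ITFG2-AS1 differed by the opposite route. It stood at 0.322, 0.431 and 0.355 CPM in SAFB1 KD and at 0.995, 0.956 and 1.13 CPM in SLTM KD, where it was called above control (1.45 on the log2 scale), and SAFB1 KD was not called. BRCC3P1, a pseudogene in an intron of SIMC1, stood at 0.460, 0.297 and 0.355 CPM against 1.49, 1.04 and 0.997 CPM, around a control level of 0.700 ± 0.0338 CPM (-1.67 ± 0.212, edgeR adjusted p = 9.94e-09). LINC01145 (-0.97) likewise lay below control in SAFB1 KD and above it in SLTM KD. RN7SL2 (-1.15), the RNA of the signal recognition particle, is not polyadenylated in the way of an mRNA, and it varied widely among control libraries (12.8 ± 3.92 CPM).

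In all, 133 of the 26688 genes were called in opposite directions against control and called between the knockdowns, 69 of them higher in SAFB1 KD and 64 lower. The genes named for the size of their difference were chosen to have no overlap between the libraries of the groups.

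Position was described next, since nested transcripts were prominent among the named genes. Of 2438 processed pseudogenes tested, 64 were called higher in SAFB1 KD and 32 lower, with a median log2 fold change of 0.12 beside -0.01 for all genes. The 756 on the strand of a host intron split 27 to 13 (median 0.08), the 484 only on the opposite strand 8 to 4 (0.20) and the 1198 in no intron 29 to 15 (0.10). The shares of the same-strand class, 3.57% higher and 1.72% lower, stood below those of all genes tested, 9.27% and 6.78%. At a mean of 1 CPM or more this class held 49 genes, 10 called higher (20.4%) and 4 lower (8.16%). Of all genes at that level 17.1% were called higher and 11.4% lower. Without SAFB1 KD replicate 1 the counts were 40 and 19 for all processed pseudogenes, and 17 and 8 for the same-strand class. DESeq2 called 38 and 14 of all processed pseudogenes. Most of these genes had few counts.

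Nested genes with a symbol that were called and differed by at least 1.5-fold numbered 48, with 24 in each direction. Among 39 hosts that could be tested, 11 were called lower in SAFB1 KD and 7 higher. Of all genes tested 6.78% were called lower and 9.27% higher. Most of these hosts averaged 1 CPM or more, where 11.4% of all genes were called lower and 17.1% higher. LRRC28, the host of HSP90B2P, was slightly lower in SAFB1 KD (-0.18 ± 0.0546, edgeR adjusted p = 0.0165), and ALMS1 was not called (-0.06, adjusted p = 0.164). SIMC1, the host of BRCC3P1, was higher (0.31 ± 0.0361). FANCB, however, was higher together with its nested NPM1P9 (0.23 ± 0.0491). All hosts of same-strand processed pseudogenes split 70 higher to 89 lower of 597, or 11.7% and 14.9%. At a mean of 1 CPM or more their shares were 13.9% and 16.9%, beside 17.1% and 11.4% of all such genes.

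Long noncoding RNA (lncRNA) genes were shifted as a class. Of 5998 tested, 63 were called higher in SAFB1 KD and 328 lower, with a median log2 fold change of -0.16 (39 and 208 by DESeq2). Protein-coding genes split 2324 to 1384 of 16028, with a median of 0.01. Against control, the lncRNA median was -0.08 in SAFB1 KD and 0.07 in SLTM KD. At a mean level of 1 CPM or more the counts were 37 and 217 of 1067 lncRNA genes, 3.47% and 20.3%, beside 18.7% and 10.8% of coding genes.

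Transcripts named as antisense to a gene split 10 higher (6 without SAFB1 KD replicate 2 or SLTM KD replicate 3) to 113 lower of 1086 (median -0.19, 6 to 75 by DESeq2), and divergent transcripts, which start from a promoter in the direction away from its gene, 2 to 32 of 497 (-0.20). Over all genes tested 9.27% were called higher and 6.78% lower. Divergent transcripts were near this share in lower calls and fell short of it in higher ones, but most of them were rare. Of them 141 averaged 1 CPM or more, and of the antisense transcripts 324. Among all genes at that level 17.1% were called higher and 11.4% lower, and among lncRNA genes 3.47% and 20.3%. Calls of divergent transcripts were not counted at that level. MZF1-AS1 stood at 2.51, 2.42 and 2.45 CPM in SAFB1 KD and at 4.23, 4.63 and 4.92 CPM in SLTM KD, on either side of control at 3.53 ± 0.256 CPM. ZNF584-DT stood at 19.9, 20.7 and 19.8 CPM against 33.1, 31.0 and 33.2 CPM, with control at 26.1 ± 0.137 CPM (-0.69 ± 0.0406, edgeR adjusted p = 3.20e-21). EMC3-AS1 was an exception, with 16.5, 18.5 and 18.3 CPM in SAFB1 KD against 11.5, 11.3 and 12.7 CPM (0.59 ± 0.0547).

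Replication-dependent histone genes, whose mRNAs mostly end without a poly(A) tail, also lay lower in SAFB1 KD, with 0 called higher and 16 lower of 50 (median -0.37). Of all coding genes tested 14.5% were called higher and 8.63% lower. H2BC12 stood at 50.5, 54.8 and 56.9 CPM against 67.7, 66.2 and 72.4 CPM (-0.35 ± 0.0332, edgeR adjusted p = 1.14e-12). H2AC13 (-0.62) and H3C10 (-0.45) had the next smallest adjusted p-values. The lncRNA share of counts ran from 1.06 to 1.08% in SAFB1 KD, from 1.11 to 1.16% in SLTM KD and from 1.10 to 1.12% in control cells. Differences between libraries in the carry-over of unpolyadenylated or nuclear RNA were not tested.

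Of the 13 mitochondrially encoded proteins, 10 were called lower in SAFB1 KD, or higher in SLTM KD, and 1 higher (median -0.17). Among coding genes averaging 1 CPM or more, 10.8% were called lower and 18.7% higher. MT-CO1, a subunit of cytochrome oxidase, stood at 7585, 7319 and 8078 CPM in SAFB1 KD and at 8402, 8562 and 9420 CPM in SLTM KD (-0.20 ± 0.0263). The median against control was 0.04 in SAFB1 KD and 0.22 in SLTM KD.

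The nuclear genes of mitochondrial complex I stood the other way, with 19 of 37 called higher in SAFB1 KD and 1 lower (median 0.08). Those with the smallest adjusted p-values were NDUFA5 (0.19), NDUFC2 (0.44) and NDUFS7 (0.15). NDUFC2 stood at 21.7, 21.5 and 17.6 CPM in SAFB1 KD and at 16.8, 16.2 and 11.9 CPM in SLTM KD, with replicate 3 the lowest in each. Mitochondrial ribosomal protein genes split 25 to 5 of 78 (0.06), with 14 higher without SLTM KD replicate 2 and 14 to 8 under upper-quartile scaling, and with MRPS7 the strongest exception at 122 against 145 CPM (means, -0.25). MICOS10, a subunit of the complex that shapes the cristae, stood at 8.38, 7.05 and 7.0 CPM against 5.98, 5.82 and 4.45 CPM (0.46). Coding genes averaging 1 CPM or more were called higher in 18.7% and lower in 10.8% of cases.

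Other housekeeping lists leaned alike. Of 20 glycolysis genes 12 were called higher in SAFB1 KD and 1 lower (median 0.07), of 31 proteasome subunits 15 and 0 (0.07), and of 86 cytosolic ribosomal protein genes 39 and 2 (0.06). LDHB, the heart-type lactate dehydrogenase subunit, stood at 49.7, 47.9 and 40.1 CPM in SAFB1 KD and at 33.2, 32.8 and 20.9 CPM in SLTM KD, with control at 50.9 ± 2.39 CPM (0.67 ± 0.0722, edgeR adjusted p = 9.02e-11). PSMA6 (0.58), RPL26 (0.34) and RPS12 (0.18) were further members, each called lower than control in SLTM KD. Of all coding genes with a mean of 1 CPM or more, 18.7% were called higher and 10.8% lower. Upper-quartile scaling moved the median of all genes from -0.01 to -0.03, and the medians of these 4 lists kept their sign. Under it complex I kept 16 higher and 1 lower, glycolysis 8 and 1, the proteasome 8 and 0 and the cytosolic ribosome 26 and 4.

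**Figure D4:**
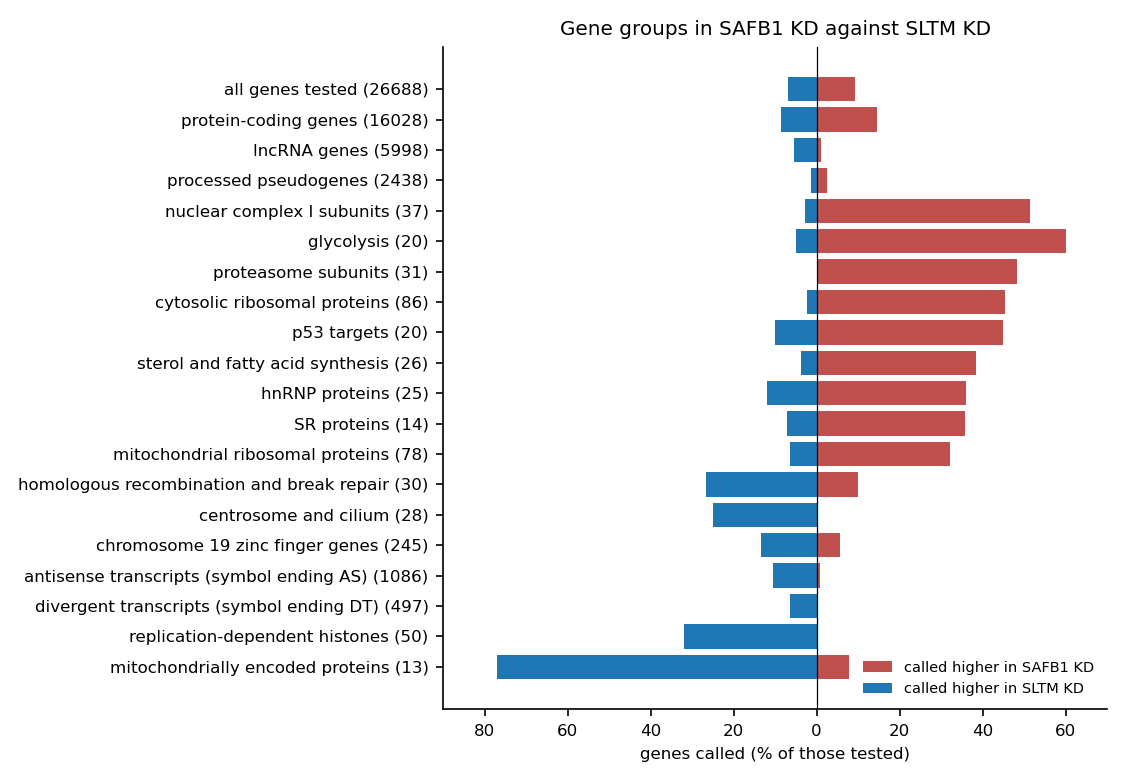
Share of genes called (x axis, percent of those tested, higher in SAFB1 KD to the right in red and higher in SLTM KD to the left in blue) for annotation classes and gene lists (y axis, number tested in brackets). Complex I subunits, glycolysis and proteasome genes lean right, and antisense and divergent transcripts, histones and mitochondrially encoded genes lean left.

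Sterol and fatty acid synthesis genes split 10 to 1 of 26 (median 0.05), with 6 higher without SLTM KD replicate 1. INSIG1, which holds the sterol sensor in the endoplasmic reticulum, stood at 87.8, 88.0 and 89.4 CPM in SAFB1 KD and at 68.8, 71.4 and 70.7 CPM in SLTM KD, with control cells between them at 78.0 ± 2.82 CPM (0.33 ± 0.0273, edgeR adjusted p = 4.56e-15). IDI1 (0.17) followed, and ACACA was lower (-0.12). Of 20 p53 targets 9 were called higher (5 without SAFB1 KD replicate 2) and 2 lower (0.08), with FDXR (0.23), BTG2 (0.18) and AEN (0.17) leading. Stress response genes split 7 to 2 of 25 (0.04), among them DDIT4 (0.26), a stress-induced inhibitor of mTORC1 signalling. These lists stand beside 18.7% called higher and 10.8% lower of coding genes averaging 1 CPM or more.

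Of 30 DNA break repair genes, 3 were called higher in SAFB1 KD and 8 lower (median -0.04), beside 18.7% and 10.8% of coding genes averaging 1 CPM or more, with 1 higher without SLTM KD replicate 2. BRCA2 stood at 38.8, 38.8 and 39.2 CPM in SAFB1 KD and at 51.7, 49.3 and 47.3 CPM in SLTM KD, with control at 49.6 ± 0.297 CPM (-0.35 ± 0.0346, edgeR adjusted p = 6.00e-12). POLQ, a polymerase of end joining, had -0.29 and BRCA1 -0.14. Centrosome and cilium genes split 0 to 7 of 28 (-0.02), led by POC1B (-0.60), PCNT (-0.12) and PCM1 (-0.11). The list medians were near 0.

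Zinc finger genes of chromosome 19 split 14 to 33 of 245 (median -0.03), with 7 higher without SAFB1 KD replicate 1 and 8 without SLTM KD replicate 3, and with ZNF227 (-0.27) and ZNF580 (-0.33) lower and ZNF302 (0.28) higher. G2/M genes split 6 to 4 of 25, with MKI67 (-0.18) and CENPF (-0.19) lower and CDK1 (0.13) higher, and G1/S genes 5 to 3 of 28. Their medians were 0.02 and 0.00, and became 0.00 and -0.02 under upper-quartile scaling. Of coding genes averaging 1 CPM or more 18.7% were called higher and 10.8% lower, and the G1/S split was near these shares.

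RNA-processing genes were mixed, beside 18.7% called higher and 10.8% lower of coding genes averaging 1 CPM or more. SR proteins split 5 to 1 of 14, SRSF1 and SRSF11 (0.14) higher and SRSF5 (-0.16) lower, and hnRNP proteins 9 to 3 of 25 (4 higher under upper-quartile scaling or without SAFB1 KD replicate 1, and 5 without SAFB1 KD replicate 2), HNRNPH2 (0.20) and HNRNPA0 (0.15) higher and HNRNPUL1 (-0.09) lower. Spliceosome genes split 8 to 3 of 28, with 5 higher without SAFB1 KD replicate 1 or SLTM KD replicate 2, and cleavage and polyadenylation genes 4 to 2 of 22 with NUDT21 (0.22) and CPSF1 (0.20) higher. Paraspeckle and nuclear matrix genes (12 symbols, 13 gene IDs) split 0 to 4, PSPC1 (-0.15), MALAT1 (-0.23) and SFPQ (-0.08) among them.

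Lists that the study named wholly or in part are not independent evidence of a direction. They stand beside 18.7% called higher and 10.8% lower of coding genes averaging 1 CPM or more. Of the 5 SAFB partner genes, RBMXL1 (44.1, 47.2 and 44.5 CPM in SAFB1 KD, 32.7, 32.8 and 31.3 CPM in SLTM KD, 0.49 ± 0.0346), ZNF638 and RBMX (0.13) were among 4 called higher, and 1 was lower. Among 4 nested retrogenes tested, RBMXL1, YY2 and UTP14C (0.29) were higher. Of their 5 hosts, POC1B, KYAT3 (-0.37) and MBTPS2 (-0.10) were lower. Of 5 hosts of named transposable elements, CENPQ, a kinetochore gene, stood at 33.4, 33.4 and 34.2 CPM in SAFB1 KD and at 23.6, 24.1 and 23.6 CPM in SLTM KD (0.50 ± 0.0381), whereas FNTA (-0.24) and RB1 (-0.17) were lower. Giant coding exon genes split 2 to 2 of 9, with NIN (0.21) and MPRIP (0.09) higher and MAP2 (-0.21) lower.

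The remaining lists are given as counts. Those made up mainly of expressed coding genes stand beside 18.7% higher and 10.8% lower of coding genes averaging 1 CPM or more. HUSH and H3K9 methylation genes split 6 to 2 of 16, L1 restriction factors 3 to 3 of 14 (0 to 4 under upper-quartile scaling, 1 higher without SAFB1 KD replicate 2 or SLTM KD replicate 3), Tigger- and pogo-derived genes 3 to 2 of 12, and interferon and nucleic acid sensing genes 3 to 2 of 29 (1 higher under upper-quartile scaling or without replicate 2 of either knockdown). Death receptor and apoptosis genes split 6 to 1 of 23 (3 higher without SAFB1 KD replicate 2 or SLTM KD replicate 3), with TNFRSF21 the 1 lower and FAS (0.20) and BAK1 (0.13) higher. Integrin and matrix genes split 6 to 6 of 32, but 2 to 8 under upper-quartile scaling, and 2, 1 and 3 were higher without SAFB1 KD replicate 1, SAFB1 KD replicate 2 and SLTM KD replicate 1. Heat shock chaperones split 3 to 2 of 19 (5 to 0 by DESeq2), mitochondrial dynamics genes 3 to 0 of 23, microRNA processing genes 1 to 1 of 13, and membrane transport genes 4 to 2 of 12, with SLC38A1 (-0.38) lower. Vesicle fusion genes split 6 to 2 of 24, with 3 to 4 under upper-quartile scaling, 3 higher without SAFB1 KD replicate 1 or SLTM KD replicate 2 and 2 without SAFB1 KD replicate 2. They were led by STX12, an endosomal syntaxin, at 37.1, 36.0 and 34.4 CPM against 22.7, 22.3 and 21.6 CPM (0.69 ± 0.0376, edgeR adjusted p = 5.78e-23). Clustered protocadherins split 1 to 0 of 41, intronic transcripts 1 to 0 of 53, snoRNA hosts 3 to 4 of 28 (1 lower without SAFB1 KD replicate 2) and microRNA hosts 1 to 4 of 48. Of these, 9 protocadherins, 5 intronic transcripts, 24 snoRNA hosts and 19 microRNA hosts averaged 1 CPM or more. The intronic transcripts and both kinds of host are noncoding, so the coding shares do not apply to them. Of lncRNA genes averaging 1 CPM or more, 3.47% were called higher and 20.3% lower.

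Genes that differed by at least 1.5-fold were short and little expressed. Of those with a mean of 1 CPM or more and an annotated transcript, the 36 called higher in SAFB1 KD spanned a median of 4.31 kb of genome and the 103 called lower 10.4 kb. All 13942 such genes had a median of 31.2 kb. Their median levels were 2.54 and 2.49 CPM, beside 29.2 CPM. Estimates of fold change are less precise at low counts, so a fold cut-off can itself favour rarer genes. Its part here was not tested. The purine-rich word GAAGAA was present in 75% of the transcripts called higher and 62.1% of those called lower, beside 80.1% of all. These transcripts were shorter, with medians of 2300 and 2149 bases beside 3224, and per kilobase the word had a median of 0.742 in those called higher, 0.509 in those called lower and 0.675 in all. HSP90B2P held 12 such words in 2384 bases, and ALMS1-IT1 and BRCC3P1 held 0.

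Because each group rests on 1 siRNA, the 3′ UTRs of 11264 coding genes averaging 3 CPM or more were searched on the sense strand for the word that pairs with each guide's seed, ATCAGAA for SAFB1 and ATTCGTG for SLTM, and for these words followed by A. The SAFB1 word was in 18.7% of these 3′ UTRs and the SLTM word in 2.40%. The SAFB1 seed is also that of the microRNA hsa-miR-4762-3p (RefSeq), and no microRNA in that table had the SLTM seed.

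Genes with the SAFB1 word of 8 bases (867, or 7.70%) were called higher in 13.1% and lower in 23.9% of cases, beside 20.2% and 10.8% of all 11264. Their median log2 fold change was -0.02, beside 0.02 for genes without the word. Against control their median was -0.042 in SAFB1 KD and -0.016 in SLTM KD, beside 0.017 and -0.0003 without the word. Genes with the SLTM word of 8 bases (60, or 0.533%) were called higher in 40% and lower in 5% of cases, with a median of 0.07. Their median against control was 0.010 in SAFB1 KD and -0.051 in SLTM KD, beside 0.013 and -0.001 without the word. The 3′ UTRs with a word were longer, with a median of 3520 bases for the SAFB1 word of 8 and 3856 for the SLTM word of 8, against 1474 for all. How much of a difference comes from the words or from length was not tested.

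**Figure D5:**
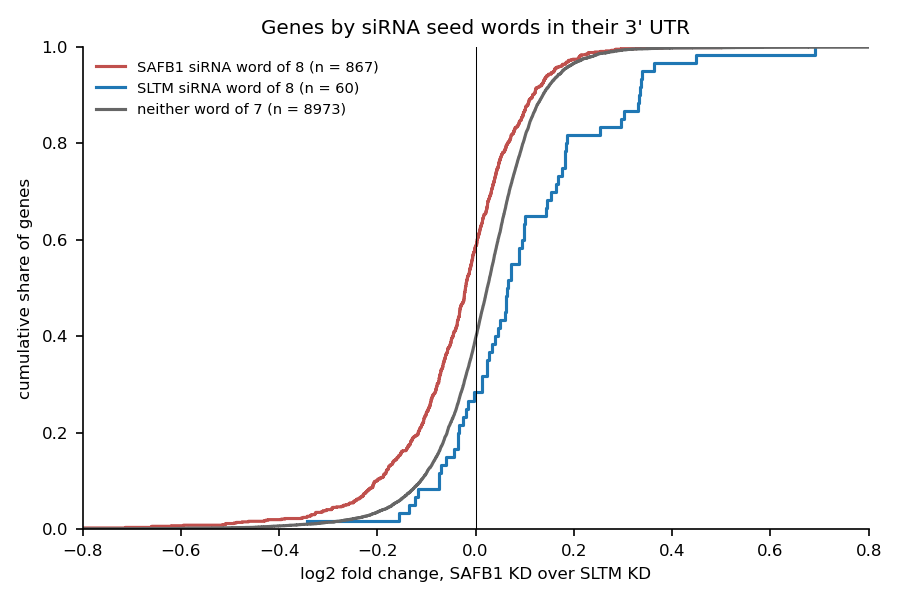
Cumulative distribution (y axis, share of genes) of the log2 fold change of SAFB1 KD over SLTM KD (x axis, shown from -0.8 to 0.8), for genes with the SAFB1 siRNA word of 8 bases in the 3′ UTR (n = 867), the SLTM word of 8 bases (n = 60) and neither word of 7. The first curve lies to the left of the third below 0 and the second to the right, with medians of -0.02 and 0.07.

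Of the 14 coding genes named as lower in SAFB1 KD other than the family, 8 held the SAFB1 word in the 3′ UTR, 5 of them followed by A, and 0 held the SLTM word. Of the 13 named as higher, 3 held the SAFB1 word and 3 the SLTM word. Those with the SAFB1 word were CHML (3 times), VWA8 (1 time, followed by A) and TIGD1 (1 time), although each was higher in SAFB1 KD. The windows below, chosen after their values were seen, show how far the match went beyond the word in 7 genes described above. All 7 were lower in the knockdown whose siRNA is shown than in the other. The SAFB1 words of CHML, VWA8 and TIGD1 are not shown. Upstream of the stop codon, SAFB1 words also lay in ZNF638 (3), CHML (2) and VWA8 (2), which were higher in SAFB1 KD. An SLTM word lay there in TNFRSF21 and in ZNF451, which were higher in SLTM KD. Those in ATP9A, ZNF451, MYO6 and CATSPERE (SAFB1) and in SRSF1 (SLTM) lay in genes lower in the matching knockdown. None of these is shown either. For EIF4EBP2 and MYO6, which held several, the 3′ UTR window with the most matching bases is shown. Each is 19 bases on the transcript's strand, with capitals where the base equals that of the siRNA sense strand, and none outside the target matched all 19.

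TNFRSF21, 3′ UTR, SAFB1 siRNA, chr6:47231580-47231598, minus strand: GaAggAccgatATCAGAAA

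XK, 3′ UTR, SAFB1 siRNA, chrX:37731468-37731486, plus strand: ctcaCAAGgTtATCAGAAA

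MYO6, 3′ UTR, SAFB1 siRNA, chr6:75918468-75918486, plus strand: taAtttAtAgGATCAGAAc

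EIF4EBP2, 3′ UTR, SAFB1 siRNA, chr10:70423828-70423846, plus strand: aaAaattGATaATCAGAAA

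SLC7A5, 3′ UTR, SLTM siRNA, chr16:87832474-87832492, minus strand: GggcTtGtgacATTCGTGA

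RHOT1, upstream of the stop codon, SLTM siRNA, chr17:32203891-32203909, plus strand: GgcagAagAaAATTCGTGA

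TIGD1, upstream of the stop codon, SLTM siRNA, chr2:232548717-232548735, minus strand: cCATTAaAAacATTCGTGA

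The number of matching bases was 11 for TNFRSF21, 13 for XK, 11 for MYO6, 12 for EIF4EBP2, 11 for SLC7A5, 12 for RHOT1 and 15 for TIGD1, the highest of the genes named for size, the family left out. TIGD1 was not called against control in SLTM KD. TNFRSF21, XK and MIGA1 held the SAFB1 word once, EIF4EBP2 3 times and GOLIM4 and MYO6 2 times. UBOX5 and ZNF814, which were also lower in SAFB1 KD, held neither word in the 3′ UTR, and ATP9A held the SAFB1 word only upstream of it. SCAMP4, ADAT3, TMED7 and BMI1 held neither word. RHOT1 held the SLTM word only upstream of the stop codon. The part of such words in these differences was not tested.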

How the data were processed

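RNA came from Flp-In T-REx HEK293 cells after siRNA transfection, with 3 biological replicates per group according to the series text. Poly(A) RNA was purified in repeated rounds and made into strand-specific libraries. The authors trimmed reads with cutadapt, aligned them to GRCh38 in a pair of passes with STAR 2.7.9a and GENCODE 29, and deposited raw read counts per gene, 1 library per file, unpooled. Reads that fit several places were not counted, so transcripts with near-identical copies can be undercounted. A SAFB2 knockdown is not analysed here.

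Of 58780 gene IDs, 58207 (99.0%, with 99.9% of counts) matched GENCODE 44 on the same build, which gave symbols, biotypes, introns and 3′ UTRs (those of the canonical transcript). Genes with at least 10 counts over the 12 libraries were tested, 26688 in all, with edgeR 4.0.16 in R 4.3.3: TMM scaling, 1 fit of the 4 groups, two-sided quasi-likelihood tests and Benjamini-Hochberg adjustment over all genes. A further test (glmTreat) asked for a 2-fold difference. Called means an adjusted p under 0.05. Fold changes are SAFB1 KD over SLTM KD, as log2 with the SE of the fit, unless a control is named. The p-values measure spread among these libraries (biological coefficient of variation 2.14%). In simulated data for this comparison, run on 26168 genes, 50 of 50 genes with a 2-fold rise were called and 46 of 50 with a 1.25-fold rise, with 13 false calls. The changed genes were drawn only from those averaging 1 CPM or more, and no replicate effect was simulated. The rate of calls among rarer genes was therefore not measured. No replicate pair agreed within sampling noise. Summaries used Python 3.11.15 with pandas 2.3.3, scipy 1.17.1 and matplotlib 3.10.9.

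Genes were named as the targets, the 15 highest and 15 lowest by fold change among called genes that have a symbol, reach a mean of 1 CPM in a group and show no overlap between libraries, the 10 highest and 10 lowest at 50 CPM or more, those called by the 2-fold test, and the 3 members of each of 43 gene lists with the smallest adjusted p. 1 gene picked by size is left out here, and not every list member is printed by name. Members and lists were chosen with earlier results of these data known, as were the searches for siRNA words and nested genes. A gene counted as nested when it lay wholly in an intron. Alternatives were other scalings (RLE, upper quartile), no filter, filterByExpr, only the 6 libraries, a replicate block, limma-voom 3.58.1, DESeq2 1.42.0 and leaving out each library.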

Additional observations from a re-analysis of the deposited data

Results flagged for a closer look

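Of the genes named for the size of their difference, 10 were called in opposite directions against control in the knockdowns (edgeR). A call between the knockdowns was a condition for naming these genes, so it is no further support. The log2 fold changes of SAFB1 KD over SLTM KD were 3.01 for DNAH10OS, 0.93 for SCAMP4, 0.51 for ZNF638, 0.50 for CHML and 0.45 for SLC7A5, each above control in SAFB1 KD and below it in SLTM KD. SLTM, at 2.76, belongs here by its own knockdown and its rise in SAFB1 KD. Below control in SAFB1 KD and above it in SLTM KD were BRCC3P1 (-1.67), ADAT3 (-1.09), LINC01145 (-0.97) and ATP9A (-0.60). Both knockdowns were set against the same control libraries. Groups of 3 libraries are too small for a test of single outlying libraries.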

How the results depend on the processing

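The comparison called 4282 genes, and 3138 to 3967 when 1 library was left out (2-fold test: 8, and 6 to 8). Split by direction, 1693 to 2291 were higher in SAFB1 KD and 1435 to 1707 lower. RLE scaling gave 4274 calls, of which 4250 were among the 4282, upper-quartile scaling 4120 (3589 shared), no filter 4125, filterByExpr 4476, only the 6 libraries 3767, limma-voom 4004 and DESeq2 3805. With the replicate block 5016 genes were called, 2907 higher and 2109 lower, and 9 by the 2-fold test. Deviations of libraries with the same replicate number correlated at 0.0649, 0.0537 and 0.0401 over 13989 genes, too little to treat the numbers as pairs, although each library correlated best with its own number, a hint from the data and not the design. Against control, SAFB1 KD called 2577 genes (DESeq2 2375, block 3416) and SLTM KD 2471 (DESeq2 2203, block 3172).

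No named gene changed direction in any alternative. Of 2205 values for the 158 genes named by the rule, 21 lost the call and 11 gained one, in 18 genes, each named as a list member. Of those printed, UTP14C (0.20, adjusted p = 0.0777), MBTPS2 (-0.09, 0.0689) and MAP2 (-0.19, 0.0877) were not called without SAFB1 KD replicate 1, MPRIP (0.06, 0.0779) without SAFB1 KD replicate 2, and MBTPS2 (-0.06, 0.225) and MAP2 (-0.14, 0.203) without SLTM KD replicate 2. MALAT1 was not called by DESeq2 (-0.23, adjusted p = 0.0635). Medians of 43 lists moved by less than their spread between replicates in 161 of 172 values. The 289 called genes averaging under 1 CPM differed by at least 0.48 on the log2 scale (median 1.06), so smaller differences were not detectable at that depth.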
